A study of Mus musculus with 40 samples.

Results

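Small nucleolar RNAs were examined in the nucleus accumbens, the ventral part of the striatum, of 40 C57BL/6J mice. Every entry of the deposited table whose name starts with Snora or Snord and a digit was taken, which gave 109 RNAs, and the 32 that were above 0 in at least 5 of the 40 libraries are the members described here. The table holds 23322 usable gene names in all. The members were chosen by these detection values, and the family itself was chosen by its measured differences: Snora65, Snord15b, Snora30 and Snora17 ranked high in several comparisons of these same libraries. The values of these 4 RNAs are given as a description and without a test. Snora47, above 0 in 5 libraries, lay just inside the rule and Snora33, above 0 in 4, just outside.

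Each mouse gave 1 library, and the 8 groups held 5 mice each. The groups were non-operated (intact) males and females, each given saline or cocaine, and ovariectomized females treated with placebo or estradiol, each again given saline or cocaine. They are called male saline, male cocaine, female saline, female cocaine, placebo saline, placebo cocaine, estradiol saline and estradiol cocaine below, each followed by the mouse number. Handling for 3 days preceded the experiment in every group. The daily cocaine dose was 20 mg/kg from day 2 to day 6 and 10 mg/kg on the first day and on day 7, and tissue was taken after a withdrawal of unstated length. The sources used here give neither the age of the mice nor the form or dose of estradiol. RNA was extracted from left and right punches, so each value is an average over all cells there, and fewer cells of a type and less RNA per cell cannot be told apart.

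Small nucleolar RNAs are short stable RNAs that work in the nucleolus, most of them cut out of the introns of other genes. H/ACA box RNAs, named Snora, pair with ribosomal RNA and direct the enzyme dyskerin (Dkc1) to turn a uridine into pseudouridine. C/D box RNAs, named Snord, direct fibrillarin (Fbl) to add a methyl group to a ribose, and a few of them are needed to cut the ribosomal RNA precursor instead. In the brain some family members are made from neuronal genes, such as Snora35 inside the serotonin receptor gene Htr2c.

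The 2 classes carry different sequence boxes. Of the 36 H/ACA RNAs of the table, 34 (94.4%) had the letters ACA within the last 10 bases of their GENCODE transcript, against 7 of 72 C/D RNAs (9.72%). TGATGA followed later by CTGA, an exact spelling of the C and D boxes on the transcript's own strand, was found in 49 of 72 C/D RNAs (68.1%) and in 0 of 36 H/ACA RNAs. The transcripts of the 4 RNAs that led to the choice of the family and of 3 comparison RNAs are shown because they differ in class and length. They come from GENCODE release M21 on mm10 and run 5′ to 3′, with capitals on ACA in the H/ACA RNAs and on the C and D boxes found in the C/D RNAs.
Snora65: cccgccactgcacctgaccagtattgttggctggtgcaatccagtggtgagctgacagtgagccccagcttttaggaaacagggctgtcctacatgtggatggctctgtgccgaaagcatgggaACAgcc
Snora30: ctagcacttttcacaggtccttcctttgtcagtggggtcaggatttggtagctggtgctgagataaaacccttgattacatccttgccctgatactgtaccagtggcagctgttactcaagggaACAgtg
Snora17: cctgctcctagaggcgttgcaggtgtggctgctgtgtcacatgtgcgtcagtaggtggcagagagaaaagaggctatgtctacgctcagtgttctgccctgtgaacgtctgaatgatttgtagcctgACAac
Snord15b: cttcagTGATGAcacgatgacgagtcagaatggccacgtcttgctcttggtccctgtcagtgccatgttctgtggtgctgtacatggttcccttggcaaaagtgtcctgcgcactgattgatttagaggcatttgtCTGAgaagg
Snord22: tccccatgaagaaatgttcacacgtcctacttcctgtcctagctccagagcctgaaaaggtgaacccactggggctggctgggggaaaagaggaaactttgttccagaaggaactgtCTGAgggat
Snord16a: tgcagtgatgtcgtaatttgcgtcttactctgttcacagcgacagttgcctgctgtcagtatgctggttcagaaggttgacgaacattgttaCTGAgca
Snord95: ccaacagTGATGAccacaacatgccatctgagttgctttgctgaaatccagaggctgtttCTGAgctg

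Snora65 lies at chr2:32963291-32963420 on the plus strand inside Rpl12, and overlaps an exon of 3 annotated Rpl12 transcripts that retain an intron. Snord15b lies at chr7:99479563-99479707 on the minus strand inside Rps3, as does its paralog Snord15a. Snora30 lies at chr7:127527874-127528003 on the plus strand inside Srcap. Snora17 lies at chr2:26639190-26639321 on the minus strand, within the span that RefSeq gives to the non-coding host gene Snhg7. Snord95, with 68 bases, is shown as an RNA that was 0 in all 40 libraries, although the same box letters were found in it as in Snord15b.

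Which RNAs were detected followed their length. Values are in TPM, transcripts per 1000000, which divide a gene's signal by its length and make every library add up to the same total. Of the 109 RNAs, 61 were 0 in all 40 libraries, 16 were above 0 in 1 to 4 libraries, and none was above 0 in all 40. Of the 53 RNAs with a RefSeq length under 81 nucleotides, 1 was ever above 0, Snord83b, at 6184 TPM in 1 library. Of the 19 RNAs of 81 to 99 nucleotides, 11 were above 0 in some library and 5 are members. All 23 RNAs of 100 to 129 nucleotides by RefSeq were above 0 in some library and 16 are members. Of the 14 RNAs of 130 nucleotides and over, 13 were above 0 in some library and 11 are members. The labels name an AmpliSeq kit, a panel of targeted amplicons, and its target list was not used here, so an RNA that was not targeted and one that was not detected cannot be told apart at 0. Snord118, also called U8 and needed in vertebrates to process the large-subunit ribosomal RNAs, was 0 everywhere. It is the exception among those of 130 nucleotides and over by RefSeq. By GENCODE length, which differs for some RNAs, 37 of 37 under 81 nucleotides and 17 of 24 of 81 to 99 were 0 in all libraries. So were 3 of 14 of 100 to 129 and 3 of 33 of 130 and over.

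**Figure D1:**
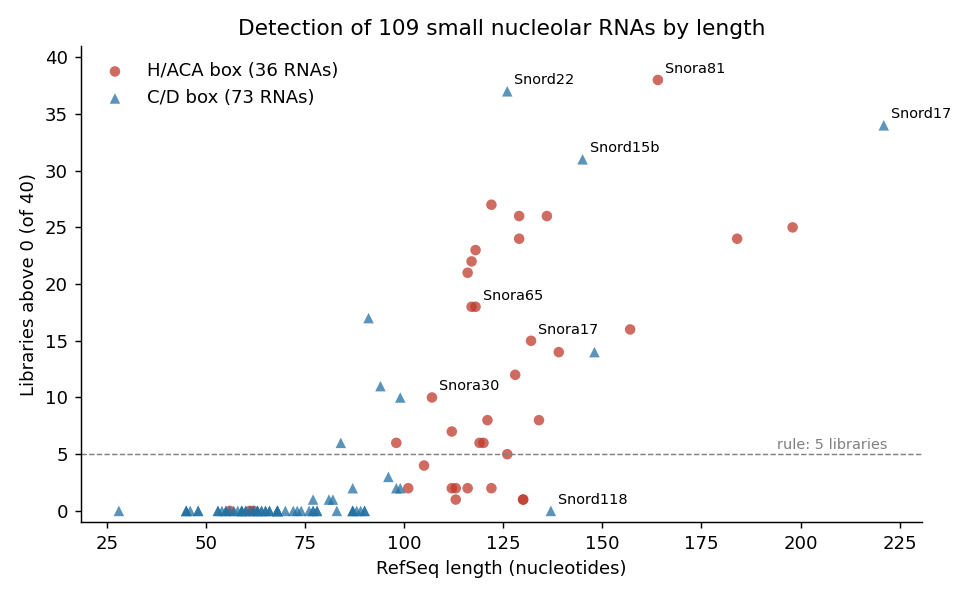
Each of the 109 RNAs is plotted by its RefSeq length in nucleotides (x axis) and by the number of the 40 libraries in which it was above 0 (y axis), with circles for H/ACA and triangles for C/D RNAs; the dashed line marks the 5 libraries the rule asks for. Below 81 nucleotides a single RNA rises from 0, and the 4 RNAs above 0 in 30 or more libraries, Snora81, Snord22, Snord17 and Snord15b, are all longer than 100 nucleotides.

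Class and length were tied together. The C/D RNAs had a median length of 68 nucleotides and the H/ACA RNAs of 119.5, and 58 of 73 C/D RNAs were 0 in all libraries against 3 of 36 H/ACA RNAs. Those 3, Snora19, Snora20 and Snora61, are entered in RefSeq with 56, 61 and 62 nucleotides, while GENCODE gives them 132, 128 and 130. The 24 H/ACA members spanned 98 to 198 nucleotides and the 8 C/D members, Snord8, Snord15a, Snord15b, Snord16a, Snord17, Snord22, Snord88c and Snord89, spanned 84 to 221. The brain-enriched C/D RNA Snord116, made from an imprinted locus, has 90 nucleotides and was 0 in all libraries. Other small RNAs of the table followed length as well. Of 257 other annotated small RNAs under 81 nucleotides 9 were above 0 in some library and 0 reached 5 libraries, while of 11 such RNAs of 130 nucleotides and over 5 reached 5 libraries.

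The shorter an RNA, the larger was its smallest value above 0. The median of the lowest value above 0 was 102 TPM for RNAs of 81 to 99 nucleotides, 21.4 TPM for those of 100 to 129 and 6.04 TPM for those of 130 and over. Snord88c, at 84 nucleotides the shortest member, was above 0 in 6 libraries and never below 257 TPM there. Snora74a, at 198 nucleotides the longest H/ACA member, went down to 1.37 TPM. Many values sat close to that floor once each library was scaled by the relative value of 1 fragment, an estimate from 2433 sparsely detected genes described under the processing. After scaling, 7 of the 18 values of Snora65, 4 of the 10 of Snora30 and 7 of the 15 of Snora17 were within 1.5 times that RNA's lowest value. Their medians were 1.68, 1.57 and 1.55 times the lowest value, and their maxima 5.24, 3.46 and 4.78 times. Snord15b, Snora81, Snord22 and Snord17 had wider ranges, with maxima of 77.2, 46.5, 60.6 and 28.5 times the lowest value. For Snora65, Snora30 and Snora17 the detected values, once scaled, thus lay within 5.24 times the lowest one, while their unscaled TPM spanned more. An entry of 0 was not read as absence of the RNA from the tissue.

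**Figure D2:**
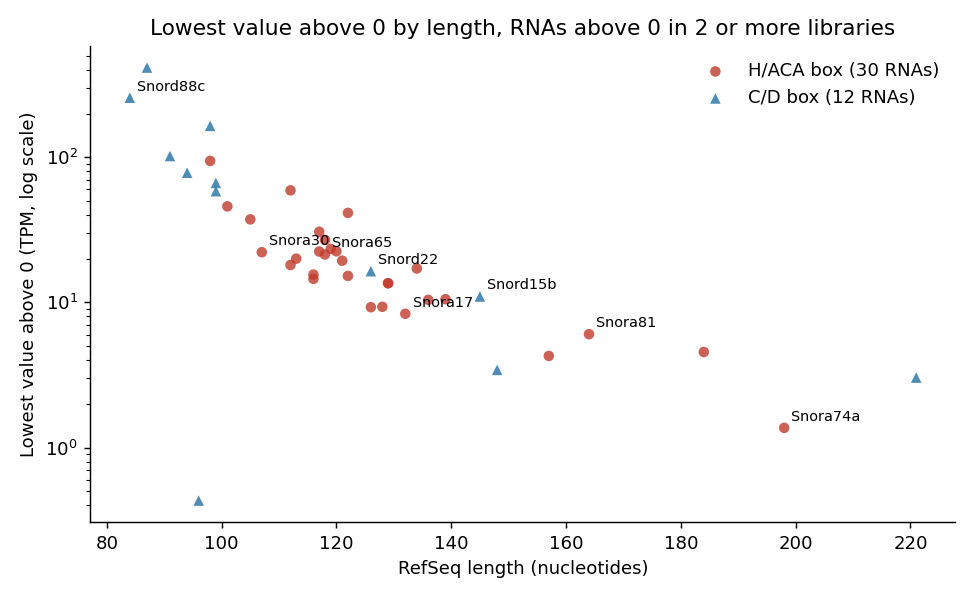
The lowest value above 0 of each RNA that was above 0 in at least 2 libraries (y axis, TPM on a log scale) against its RefSeq length (x axis, nucleotides), with circles for H/ACA and triangles for C/D RNAs. The lowest value falls from 257 TPM for Snord88c to 1.37 TPM for Snora74a, and 1 short C/D RNA, Snord7, lies apart at 0.431 TPM.

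Libraries differed widely in how many of the 32 members were above 0, from 6 to 24 with a median of 13. The summed TPM of the members ran from 367 to 9491, or 0.0367% to 0.949% of a library. The relative value of 1 fragment, set to 1 for the median library and low where a library was sampled finely, ran from 0.275 in male saline 73 to 3.09 in female saline 64. In the 10 libraries with the lowest fragment value 9 to 24 members were above 0, with a median of 21. In the middle 20 libraries the range was 7 to 24 and the median 13.5, and in the 10 libraries with the highest fragment value 6 to 12 and 8. The summed TPM differed less between these 3 sets, with medians of 1471, 1369 and 1261 TPM.

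**Figure D3:**
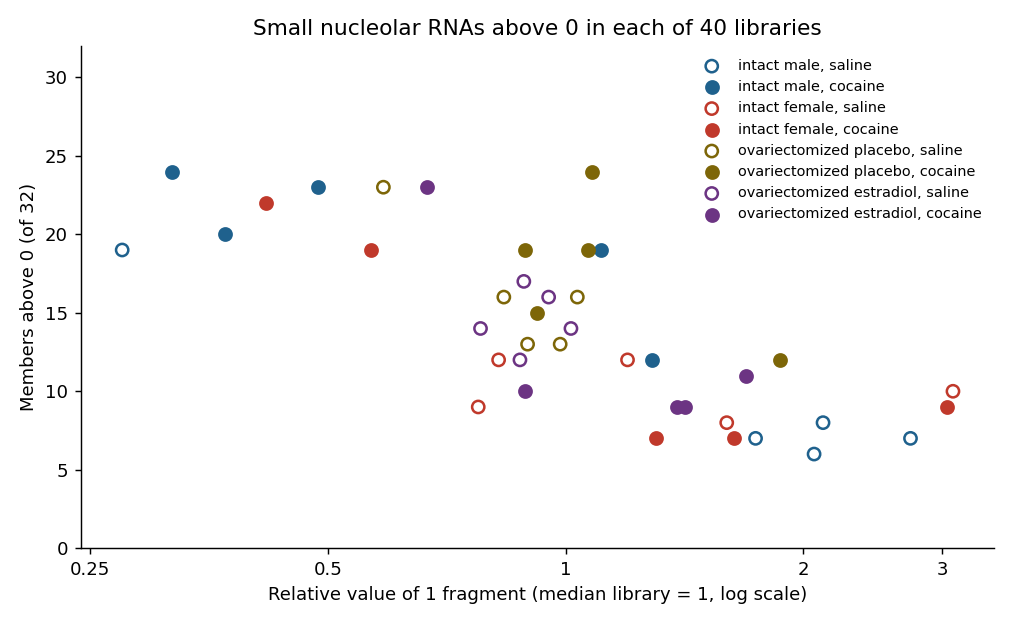
Each of the 40 libraries is plotted by its relative value of 1 fragment (x axis, log scale, median library = 1) and by the number of the 32 members above 0 (y axis); colour gives sex and surgery, open symbols saline and filled symbols cocaine. Libraries on the left, sampled more finely, hold up to 24 members above 0, and 4 of 5 male saline libraries lie at the lower right with 6 to 8.

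By group, the median number of members above 0 was 7 in male saline, 20 in male cocaine, 10 in female saline, 9 in female cocaine, 16 in placebo saline, 19 in placebo cocaine, 14 in estradiol saline and 10 in estradiol cocaine. Male saline and male cocaine also had the highest and the lowest median fragment value of the 8 groups, 2.06 and 0.487. In male saline 73, the most finely sampled library, 19 members were above 0, within the 12 to 24 of the male cocaine mice. Detection in the males and the fragment value thus moved together, and the part of sampling in the detection counts was not tested. Fits with the fragment value as a covariate are given only for cocaine in males and for females minus males. Over all mice, 23 members were above 0 in more cocaine than saline libraries, 4 in fewer and 5 in the same number. Comparing the 20 ovariectomized with the 20 intact mice, 17 members were above 0 in more ovariectomized libraries, 12 in fewer and 3 in the same number. Both counts include the 4 RNAs that led to the choice of the family, and no such count was made over all genes. The median fragment value was 0.968 in saline and 1.07 in cocaine libraries, and 1.67 and 0.838 in the intact ones alone. It was 0.936 in ovariectomized and 1.24 in intact libraries.

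Some libraries stood apart. The library labelled male cocaine 69 is listed among the male cocaine mice in its description but also carries the code 69-MS there, and MS is the code of the male saline libraries. Both its treatment and its sex are therefore in doubt. It had 237 TPM of the female-specific Xist against at most 8.02 TPM in the 9 other males, and 0.318 TPM of the Y-linked Ddx3y against at least 13.5 TPM in them. It is kept under its title. The members' medians for cocaine against saline in males and for females minus males are also given without it. The average over the 4 conditions and females against males in cocaine mice are given with it only. Placebo cocaine 139 had the largest summed level, 9491 TPM; 24 members were above 0 there, 18 of them higher than in the other 4 mice of the group, and 12 members had their highest value of all 40 libraries in it. Its ribosomal precursor Rn45s stood at 158382 TPM, against 1411 to 62520 TPM elsewhere. The 4 libraries least correlated with the rest (male cocaine 67, placebo saline 137, estradiol cocaine 126 and 134) had 11 to 23 members above 0, summed levels of 2055 to 3886 TPM and a ribosomal protein mRNA share of 19.6% to 31.6%, against 7.62% to 17.9% in the other 36. Defining markers of striatal projection neurons were above 0 in all 40 libraries with a summed level of 2455 to 8011 TPM. Markers of tissue outside the striatum varied more, cortical excitatory neurons from 10.5 to 920 TPM and pituitary hormones from 1.79 to 116 TPM. Their part in the small nucleolar RNA values was not tested.

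Snora65 guides pseudouridylation of 28S ribosomal RNA in humans. It was 0 in all 5 male saline mice, including male saline 73, and in the male cocaine mice it stood at 39.3, 25.1, 25.9, 68.9 and 58.8 TPM (43.6 ± 19.6 TPM, SD, n = 5). It was also 0 in all 5 female saline mice and above 0 in 2 of 5 female cocaine mice, at 21.4 and 84.8 TPM. The male groups as titled did not overlap, with or without the library labelled male cocaine 69; read by its code as male saline, its 25.9 TPM would make them overlap. In ovariectomized mice the saline groups were not at 0: Snora65 stood at 58.9, 43.6, 0, 80.8 and 43.6 TPM in placebo saline and at 0, 54.2, 43.9, 0 and 51.6 TPM in placebo cocaine. The estradiol saline mice had 0, 0, 97.7, 0 and 44.5 TPM and the estradiol cocaine mice 162, 0, 119, 0 and 0 TPM, so in both ovariectomized pairs the groups overlapped. Rpl12, the ribosomal protein gene that contains Snora65, was above 0 in every library and differed by -0.10 ± 0.34 (log2, SE) between male cocaine and male saline.

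Snord15b, also called U15B, guides methylation of 28S ribosomal RNA in vertebrates. It was 0, 0, 0, 33.2 and 42.4 TPM in male saline and 276, 67.8, 133, 10.98 and 19.0 TPM in male cocaine. It was 44.5, 0, 0, 0 and 0 TPM in female saline and 88.5, 36.1, 28.0, 0 and 0 TPM in female cocaine, so cocaine and saline mice overlapped in both sexes. All 20 ovariectomized mice were above 0, against 11 of the 20 intact mice, with a median of 125 TPM against 15.0 TPM. Placebo saline mice had 31.3, 72.5, 126, 98.3 and 579 TPM and placebo cocaine mice 177, 45.1, 224, 69.8 and 1199.9 TPM. Estradiol saline mice had 125, 62.0, 236, 166 and 129.9 TPM and estradiol cocaine mice 413, 75.5, 125, 51.8 and 90.7 TPM. Its lowest placebo saline value lies below the one female saline value above 0, so even these groups overlapped. Rps3, its host, differed by 0.11 ± 0.36 (log2, SE) between male cocaine and male saline.

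Snora30 was above 0 in 10 libraries and in none of the 10 placebo mice. Among saline mice it was at 24.99 TPM in male saline 73, at 0 in all female saline mice, and at 167, 79.8 and 86.0 TPM in 3 of 5 estradiol saline mice. Among cocaine mice it stood at 22.2 and 60.2 TPM in 2 males, at 118 and 41.3 TPM in 2 intact females, and at 40.3 and 68.4 TPM in 2 estradiol mice. Snora17 showed the reverse between the ovariectomized groups: it was 0 in all 10 estradiol mice, and above 0 in 4 placebo saline mice (39.4, 30.4, 33.9 and 12.8 TPM) and 3 placebo cocaine mice (73.4, 24.1 and 32.9 TPM). In intact mice Snora17 was above 0 in 1 male saline (92.2 TPM), 4 male cocaine (8.35, 50.7, 11.7 and 40.6 TPM), 1 female saline (119 TPM) and 2 female cocaine mice (19.9 and 27.4 TPM). Estradiol and placebo mice overlapped at 0 for both RNAs within each treatment.

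**Figure D4:**
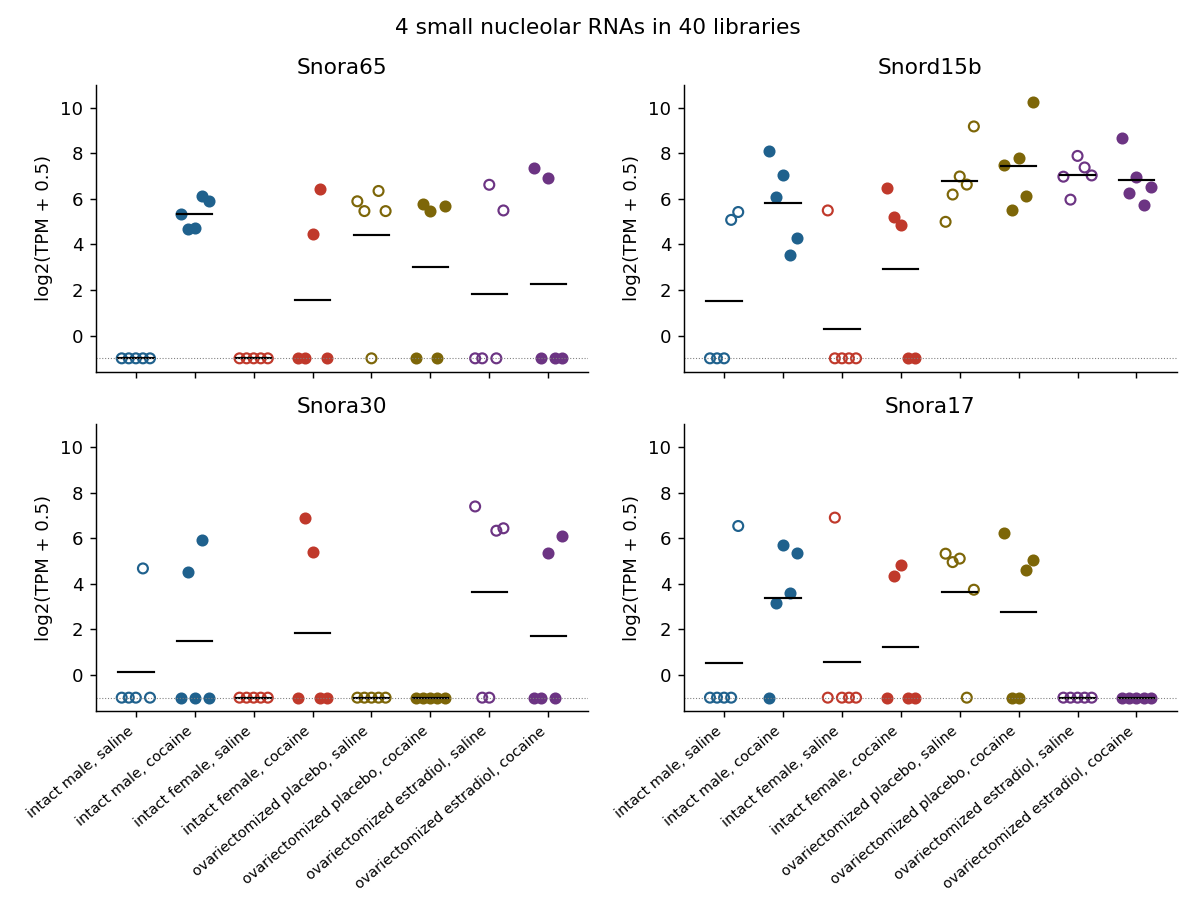
Values of Snora65, Snord15b, Snora30 and Snora17 in each of the 40 libraries on the log2(TPM + 0.5) scale (y axis), by group (x axis, 5 mice each); points are libraries, open for saline and filled for cocaine, the black bar is the group mean on this scale, and the dotted line is where a value of 0 falls. Snora65 is 0 in every male saline library and 25.1 TPM or more in every male cocaine library, and Snord15b is above 0 in all 20 ovariectomized libraries.

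Among the other H/ACA members, Snora81, which sits in an intron of the translation factor gene Eif4a2, was the most widely detected, above 0 in 38 libraries and at most 108 TPM except in placebo cocaine 139, where it reached 325 TPM. Snora28, which guides 18S ribosomal RNA in humans, was above 0 in 27 libraries, Snora16a and Snora70 in 26 each, and Snora74a in 25. Snora70, made from the ribosomal protein gene Rpl10 and guiding 18S in humans, was above 0 in 17 cocaine and 9 saline libraries. It was 0, 0, 0, 26.1 and 0 TPM in male saline and 167, 45.6, 63.3, 34.9 and 0 TPM in male cocaine, so the groups overlapped. Snora35 was above 0 in 6 libraries at 23.4 to 59.7 TPM, while its host Htr2c was above 0 in all 40 at 20.5 to 165 TPM. Of the 24 H/ACA members, 8 were above 0 in 10 or fewer libraries and 10 in 20 or more.

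Among the C/D members, Snord22, also called U22 and needed in Xenopus to make 18S ribosomal RNA, was above 0 in 37 libraries, and Snord17 in 34. Snord22 stood at 229.6, 0, 0, 90.4 and 239.8 TPM in male saline and at 738, 164, 130.3, 70.5 and 87.0 TPM in male cocaine. In intact females the order was the other way, with 525, 65.3, 121, 71.7 and 115 TPM in saline and 83.1, 16.4, 63.9, 128 and 0 TPM in cocaine mice, and the groups overlapped in both sexes. Snord16a, which guides 18S in humans, has 91 nucleotides by RefSeq and 99 by GENCODE. It was above 0 in 17 libraries at 102 to 3576 TPM. Its mean, 339 TPM over all 40 libraries, was the highest of the members. Snord89 was above 0 in 11 libraries, with 720 TPM in male saline 63 as its highest value and 0 in all 10 estradiol mice. Snord88c was above 0 in 6 libraries at up to 3557 TPM, always in 2 of 5 mice of male cocaine, female saline or estradiol saline, and 0 in the other 5 groups. Because a single such RNA can outweigh the rest, the sum over members is a poor summary of the family: in female saline 65 Snord88c made up most of the 4182 TPM.

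RNAs made from 1 host transcript were not detected together in every library. Snord15a and Snord15b, both in Rps3, were both above 0 in 13 libraries, Snord15b alone in 18, Snord15a alone in 1 and neither in 8. Snora16a and Snora44, both in Snhg12, were both above 0 in 13 libraries, 1 of them alone in 13 and 5, and neither in 9. Snora17 and Snora43, both within Snhg7, were both above 0 in 6 libraries, Snora17 alone in 9, Snora43 alone in 8 and neither in 17. In contrast, the host genes were measured throughout. Of the 27 distinct host genes that could be measured, 26 were above 0 in all libraries, and Snhg9 in 34. By GENCODE, 30 members lie in a same-strand gene, 11 of them in ribosomal protein genes and 4 in genes named Snhg there, while RefSeq places 7 members in Snhg genes. By GENCODE 17 members overlap an exon of an annotated host transcript, so that reads of host and small RNA could not be told apart there.

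Cocaine and saline mice were compared with limma on log2(TPM + 0.5) over 15196 genes, those that reached 1 TPM in 5 or more libraries, all 32 members among them, with Benjamini-Hochberg adjusted p under 0.05 as the call. With 1 library per mouse, p-values measure the spread between mice together with that from the sampling of their libraries. In the males 0 of 32 members were called, as were 0% of all genes. Counts at an unadjusted p under 0.05 are given over the 28 members other than the 4 that led to the choice of the family, as a description, since the family was chosen from these comparisons. In the males there were 2, Snora70 and Snord22, both higher in cocaine mice, against 1.02% of all genes. They differed by 4.46 ± 1.97 (Snora70) and 3.25 ± 1.49 (Snord22) on the log2(TPM + 0.5) scale, SE, each with an adjusted p of 1.00. Of the members 27 of 32 had a log2 difference above 0, against 44.5% of all genes. This count includes the 4 RNAs that led to the choice of the family, so it is a description only. The members' median log2 difference was 1.53 against -0.03 for all genes, and 1.38 over the 28. Over the 32 it was 1.73 without the library labelled male cocaine 69, 1.14 with the fragment value of each library as a covariate, and 0.84 with that covariate and without the 4 least correlated libraries. With the covariate Snora70 had an unadjusted limma p of 0.0955 and Snord22 of 0.0625. The 8 markers of choroid plexus and ependyma moved with the same groups, 4 of 8 at an unadjusted p under 0.05 and 0 called, with a median log2 difference of -0.80. Their summed level was 57.2 to 155 TPM in male saline and 44.1 to 92.1 TPM in male cocaine mice, and their part in the member values was not tested.

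In intact females, 0 of 32 members were called and 1 of the 28, Snord88c, had an unadjusted p under 0.05, against 0% and 0.954% of all genes. Of the members 19 of 32 had a log2 difference above 0, close to the 57.9% of all genes. This count too includes the RNAs that led to the choice of the family. The members' median log2 difference was 0.67 against 0.03 for all genes, and 0.24 over the 28. Cortical excitatory neuron markers moved with the same groups, 8 of 8 above 0 with a median log2 difference of 1.5, 2 of 8 at an unadjusted p under 0.05 and 0 called. Their summed level was 19.7 to 198 TPM in female saline and 55.7 to 920 TPM in female cocaine mice, and their part in the member values was not tested. In placebo mice 0 members were called (0% of all genes), and Snord89, Snora44 and Snora47 had an unadjusted p under 0.05, against 0.823% of all genes. Snora44 was above 0 in all 5 placebo cocaine mice (103, 59.5, 85.4, 34.4 and 50.4 TPM) and in 2 of 5 placebo saline mice (56.7 and 42.7 TPM), so the groups overlapped. Its difference was 4.31 ± 2.1 (log2, SE) with an adjusted p of 0.996. With placebo cocaine 139 left out, the members' median moved from 0.24 to 0.04. Snora47 had 0 in all placebo cocaine mice and 37.8 and 16.2 TPM in 2 placebo saline mice. In estradiol mice 0 members passed either threshold, against 0% and 41.7% of all genes, and the members' median of -0.43 stood beside -0.56 for all genes. It was -1.36 without the 4 least correlated libraries, 2 of which belong to estradiol cocaine. Of the 4 members with the smallest p here, Snora70 was higher in cocaine mice, with a log2 difference of 3.89. Snord88c, Snord16a and Snora23 were lower, at -4.53, -4.33 and -1.94. Snora23 was at 0, 8.13, 7.36, 17.1 and 0 TPM in estradiol saline. It was above 0 in 1 of 5 estradiol cocaine mice, at 5.22 TPM, so the groups overlapped. Of 6 astrocyte markers 5 had an unadjusted p under 0.05 here and 0 were called, with a median log2 difference of -1.01. Their summed level was 1335 to 1672 TPM in estradiol saline and 249 to 1590 TPM in estradiol cocaine mice, and their part in the member values was not tested. Averaged over the 4 conditions 0 members were called (0% of all genes) and 1 of the 28, Snora70, had an unadjusted p under 0.05, against 1.1% of all genes. It was higher in cocaine mice by 2.57 ± 0.98 (log2, SE) with an adjusted p of 0.899.

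Differences between the cocaine responses were tested directly. For females minus males 0 of 32 members were called (0% of all genes), and Snord22 and Snord88c had an unadjusted p under 0.05, against 0.665% of all genes. Snord22 differed by -5.76 ± 2.1 (log2, SE) with an adjusted p of 1.00. The members' median was -2.0 against 0.05 for all genes, -1.52 without the library labelled male cocaine 69 and -1.0 with the fragment value as a covariate. For estradiol minus placebo, 0 members passed either threshold, against 0% and 31.3% of all genes, and the members' median was -0.83 beside -0.71 for all genes. It was -0.24 without placebo cocaine 139 and -2.42 without the 4 least correlated libraries. Each of these uses the same saline and cocaine mice as the comparisons above.

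**Figure D5:**
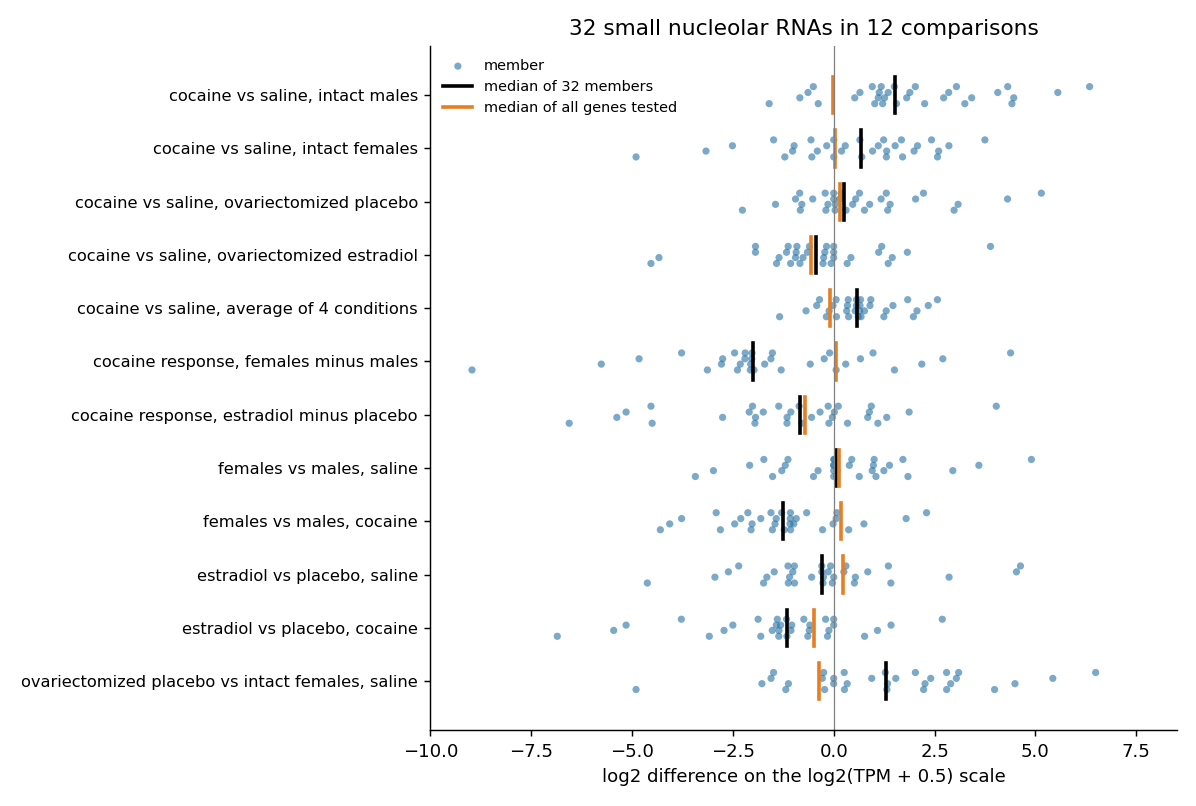
Log2 differences on the log2(TPM + 0.5) scale (x axis) of the 32 members, 1 blue point each, in the 12 comparisons (y axis); the black bar is the members' median and the orange bar the median of all genes tested. The bars are farthest apart for the sex difference in cocaine response, the ovariectomy comparison and cocaine in intact males, at -2.0, 1.30 and 1.53 for the members, and 0 members were called in any comparison.

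Females and males differed in 5 genes called among saline and 5 among cocaine mice, and 0 members were among them (0.0329% of all genes in each). At an unadjusted p under 0.05 there was 1 member in saline mice, Snord88c, against 1.41% of all genes, and there were 0 in cocaine mice, against 1.36%. In saline mice the members' median log2 difference was 0.05 against 0.13 for all genes. In cocaine mice it was -1.26 against 0.19, and -1.15 over the 28. There 26 of 32 members were below 0, while 81.1% of all genes were above 0. That count includes the RNAs that led to the choice of the family, so it is a description only. The male cocaine group here includes the library whose treatment and sex are in doubt. The median fragment value was 1.30 in female cocaine and 0.487 in male cocaine libraries. No fit with it as a covariate is given for this comparison.  Estradiol and placebo mice were compared in the same way. In saline mice 0 members were called (0% of all genes) and 0 of the 28 had an unadjusted p under 0.05, against 2.48% of all genes. The members' median of -0.28 turned to 0.26 without the 4 least correlated libraries. Of 8 choroid plexus and ependyma markers 3 had an unadjusted p under 0.05 here and 0 were called, with a median log2 difference of -0.87 against 0.23 for all genes. Their summed level was 55.9 to 354 TPM in placebo saline and 48.1 to 111 TPM in estradiol saline mice, and their part in the member values was not tested. In cocaine mice 0 were called (0% of all genes) and 3 of the 28, Snora44, Snord16a and Snord89, had an unadjusted p under 0.05, all lower in estradiol, against 15.7% of all genes. Snora44 was above 0 in 1 of 5 estradiol cocaine mice, at 92.8 TPM, and in 5 of 5 placebo cocaine mice. Snord16a was above 0 in 1 of 5 estradiol cocaine mice, at 186 TPM, and in 4 of 5 placebo cocaine mice, at 306 to 3576 TPM. Snora44 differed by -5.46 ± 2.1 and Snord16a by -6.85 ± 3.01 (log2, SE), each with an adjusted p of 0.244. With placebo cocaine 139 left out, the members' median moved from -1.16 to -0.40.

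Placebo saline and female saline mice differed in surgery, in the placebo and in the range of mouse numbers (61 to 80 for intact and 121 to 140 for ovariectomized mice), which cannot be told apart. Here 0 of 32 members were called (0% of all genes), and 4 of the 28, Snora74a, Snord17, Snora47 and Snord88c, had an unadjusted p under 0.05, 3 of them higher in placebo saline, against 19.3% of all genes. The members' median was 1.30 while that of all genes was -0.37, and 21 of 32 were above 0, against 22.2% of all genes. That count includes the RNAs that led to the choice of the family, so it is a description only. Over the 28 the median was 1.11. Snora74a, also called U19 and made from Snhg4, was 17.7, 10.7, 24.3, 13.5 and 14.6 TPM in placebo saline and 16.4, 0, 0, 0 and 0 TPM in female saline. The groups overlapped through female saline 64, and the difference was 3.99 ± 1.13 (log2, SE) with an adjusted p of 0.247. Over all mice Snora74a was above 0 in 18 of 20 ovariectomized and 7 of 20 intact libraries. Snord17 was 5.54, 29.4, 19.6, 23.2 and 68.1 TPM in placebo saline and 16.6, 0, 0, 6.45 and 3.82 TPM in female saline, a difference of 3.10 ± 1.24 with the same adjusted p. With limma's array weights 4 of the 28 were called, among them Snora74a with an adjusted p of 0.000403 and Snord17 with 0.00671, while 44.8% of all genes were called in that fit. Leaving out the 4 least correlated libraries lowered the members' median to 0.53. Pituitary hormone genes moved here too, 3 of 4 at an unadjusted p under 0.05 and 0 called, with a median log2 difference of -1.87. The summed level of all 5 listed pituitary genes, not all of them tested, was 3.80 to 65.3 TPM in female saline, with a median of 28.6 TPM. It was 4.84 to 116 TPM in placebo saline mice, with a median of 8.58 TPM. The part of these genes in the member values was not tested.

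The proteins and host genes around the family gave 0 calls in any of the 12 comparisons. The C/D core proteins were above 0 in all 40 libraries. Fbl, the methyltransferase, stood at 62.0 ± 8.95 TPM (SD, n = 40), Nop56 at 82.0 ± 19.2 TPM, Nop58 at 34.7 ± 11.5 TPM and Nhp2l1, which binds the RNA first, at 279 ± 46.4 TPM. Of the H/ACA core, the pseudouridine synthase Dkc1 stood at 23.9 ± 6.27 TPM, Gar1 at 25.5 ± 6.18 TPM, Nhp2 at 92.6 ± 34.1 TPM and Nop10 at 206 ± 59.1 TPM. In male cocaine against male saline 0 of 4 C/D core proteins, 0 of 4 H/ACA core proteins, 0 of 14 assembly factors, 0 of 16 host genes of the Snhg kind, 0 of 12 RNA polymerase I genes and 0 of 24 nucleolar proteins had an unadjusted p under 0.05. Their medians were -0.01, -0.01, -0.01, 0.08, -0.00 and 0.05 (log2), beside -0.03 for all genes. The 27 host genes of the members ranged from -0.35 to 0.88 there, with a median of -0.04 and 0 at an unadjusted p under 0.05. In estradiol mice they ranged from -1.22 to 0.92 and 13 of 27 had an unadjusted p under 0.05, as had 12 of 24 nucleolar proteins and 5 of 14 assembly factors, beside 41.7% of all genes.

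Other structured RNAs were read beside the members. Of 9 small Cajal body RNAs, which guide changes in spliceosomal RNAs, Scarna2, Scarna3b, Scarna9, Scarna10 and Scarna17 were 0 in all libraries, and 2, Scarna6 and Scarna13, were tested, with 0 called. The longer RNAs Rmrp, the RNA of RNase MRP, and Rpph1, the RNA of RNase P, were above 0 in all 40 libraries, at 7.58 to 631 TPM and 2.91 to 323 TPM. Both had their highest value in placebo cocaine 139, the library with the largest small nucleolar RNA sum. The spliceosomal RNA Rnu12 was above 0 in 29 libraries. In males 6 other structured RNAs, the ribosomal precursor Rn45s among them, had a median log2 difference of 1.12. Of these, 3 (Rnu11, Rnu12 and Vaultrc5) had an unadjusted p under 0.05 and 0 were called, against 1.02% and 0% of all genes. In placebo saline against female saline the median of these 6 was 1.37. There 2 of 6 had an unadjusted p under 0.05 and 0 were called, against 19.3% and 0% of all genes.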

How the data were processed

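RNA from nucleus accumbens punches of 40 mice was sequenced with an AmpliSeq kit in 1 lane, per the labels' protocols. The build was mm10 per the submitters' processing notes, which name limma, DESeq2, Cuffdiff 2.2.0, Cufflinks 2.2.0, TopHat2 2.0.9 and Bowtie2 2.1.0.0 without saying what each produced. The authors' deposited table is named for FPKM, but each of its 40 columns sums to 1000000, so its values are TPM. All 40 columns matched a sample. Of 23349 entries, 27 with a date in place of a name were left out. TPM holds no counts. The labels give 9.4 + 4.7 reads per sample in units of 1000000 as 1 figure for all samples, without saying what the second number is, so no library's own depth is known and no counting interval is given. Which RNAs the kit targets, and how kit and length model treat RNAs under 100 nucleotides, was not tested.

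The relative value of 1 fragment was estimated from the commonest ratio of values between each of 780 library pairs over 2433 genes above 0 in 2 to 20 libraries, fitted over the pairs; 86.7% of pairs lay within 0.15 (log2) of the fit. Lengths came from RefSeq (109 of 109 RNAs matched) and positions from GENCODE M21 (108 of 109). Tests were contrasts of 8 group means on log2(TPM + 0.5), fitted with limma 3.58.1 in R 4.3.3. Trend and robust options were used, with 32 residual degrees of freedom. Benjamini-Hochberg adjustment covered 15196 genes, and the script was tested on simulated data. This scale understates changes between low values above 0. Where an RNA goes between 0 and a high lowest value, the size of its log2 difference depends strongly on the added 0.5. The RNAs named are the 4 that led to the choice of the family, in each comparison those called or, with none, up to 4 of the smallest p, the 5 of highest mean, those at the edge of the detection rule, well-known members, and hosts. Others were named after their values were seen: Snord17, Snora28, Snora16a, Snora35 and Snora43, the 3 short H/ACA entries, Snord83b, Snord7 and Snord95. The members and lists were chosen with earlier results of these data known. Alternatives covered the pseudocount, the filter, centring, quantile normalization, array weights, covariates and left-out libraries. No p-value was computed over the members as a list.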

Additional observations from a re-analysis of the deposited data

Results flagged for a closer look

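In groups of 5 mice, Dixon's test at the 95% level marked the highest or lowest library in 12 of 48 groups of values; chance marks about 1 in 20, and a group with 1 value above 0 and 4 at 0 is always marked. Single values above 0, or nearly so, were Snord15b in female saline 64 (44.5 TPM), Snora30 in male saline 73 (24.99 TPM), Snora17 in male saline 74 (92.2 TPM) and in female saline 65 (119 TPM), and Snora65 in female cocaine 79 (84.8 TPM). Snord15b stood above the other 4 mice of its group in placebo saline 137 (579 TPM), placebo cocaine 139 (1199.9 TPM) and estradiol cocaine 126 (413 TPM). The summed level stood apart in placebo saline 137 (3886 TPM) and placebo cocaine 139 (9491 TPM). The number of members above 0 stood apart in male saline 73 (19) and estradiol cocaine 134 (23). Placebo saline 137, estradiol cocaine 126 and estradiol cocaine 134 are among the 4 libraries least correlated with the others.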

How the results depend on the processing

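The reported count of called members is 0 in all 12 comparisons, so refits could only raise it, which happened in 3 of 373. With array weights 1 member was called in female cocaine against female saline (0.151% of all genes) and 6 in placebo saline against female saline (44.8%). With only the 2 male groups in the fit 1 was called (0.00658%). Both single calls, and 2 of the 6, are RNAs that led to the choice of the family, so these calls give no support; the cause was not tested. Of 1492 recomputed differences of named RNAs, 1486 kept direction and side of the threshold, 6 passed it and 0 reversed. These RNAs were named for the smallest p in the same comparisons, and some led to the choice of the family. None was called at first, so they could cross the threshold only upward, and the counts give no support. The sizes of the differences varied more. Over the 17 alternatives other than leaving out each library in turn, Snora70 in males ran from 1.96 to 5.85 (log2). Snord22 in males ran from 1.58 to 4.36. Leaving out 1 library at a time left the count of called members at 0 in every comparison (0 to 0). The median summed level moved for female cocaine from 1238 to 383 TPM over members in at least 20 libraries, and for estradiol saline from 1703 to 661 TPM so, and to 1145 TPM without the member of highest mean. No paired analysis was possible because mouse numbers are unique to 1 mouse and no label pairs mice. The fits with the fragment value as covariate, alone or without the 4 least correlated libraries, and the fit without placebo cocaine 139 were chosen after seeing the data. No library's own depth is known, and members were above 0 in a median of 16.5 of 40 libraries, which limits the change that could be detected.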
